A study of Homo sapiens with 12 samples.

Results

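The transcripts of 10 chemokines were followed in triple-negative breast cancer cells with and without depletion of PACT, a protein that binds double-stranded RNA and is encoded by PRKRA. The members were chosen by name, as the genes CXCL1, CXCL2, CXCL3, CXCL5, CXCL8, CXCL10, CXCL16, CCL2, CCL5 and CCL20, and all 10 were found among the 57500 genes of the count table. Total RNA of 12 libraries was sequenced after removal of rRNA. Both lines studied, HCC1806 and MDA-MB-468, are long-established cultures of triple-negative tumours, which lack estrogen and progesterone receptors and HER2 amplification. In HCC1806, 3 libraries carried the control guide sgC1 and 3 the PRKRA guide sgPACT-2. In MDA-MB-468, 3 libraries carried the control guide sgNTA and 3 carried sgPACT-2. The control guides therefore differed between the lines, and a difference between control libraries of the lines cannot be told apart from a difference between guides. Whether the edited cells were a pool or a clone, and whether the libraries of a group came from separate cultures, was not given in the sources used here, so the p-values measure only the spread between these libraries, which may be technical.

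Chemokines are small secreted proteins that attract leukocytes along a gradient and act through G protein-coupled receptors. CXCL1, CXCL2, CXCL3, CXCL5 and CXCL8 are ligands of CXCR2 and attract neutrophils; CXCL8, also called interleukin-8, is in addition a ligand of CXCR1. CXCL10 is the interferon-inducible ligand of CXCR3, and CXCL16 is the ligand of CXCR6, made as a membrane protein and shed by ADAM10. CCL2 attracts monocytes through CCR2, CCL5 attracts T cells and other leukocytes, and CCL20 is the ligand of CCR6. In epithelial and tumour cells many of these genes are transcribed on demand, with NF-kappaB and AP-1 as well-known activators and interferon regulatory factors acting on CXCL10 and CCL5, and several of their mRNAs are short-lived.

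The genes lie on 3 chromosomes, here in GRCh38 coordinates of GENCODE 29, and all are protein-coding. A cluster on chromosome 4 holds CXCL8 (ENSG00000169429, chr4:73740506-73743716, plus strand), CXCL1 (ENSG00000163739, chr4:73869393-73871242, plus), CXCL5 (ENSG00000163735, chr4:73995642-73998779, minus), CXCL3 (ENSG00000163734, chr4:74036589-74038807, minus) and CXCL2 (ENSG00000081041, chr4:74097035-74099293, minus). CXCL10 (ENSG00000169245, chr4:76021117-76023497, minus) lies further along the same chromosome. CXCL16 (ENSG00000161921, chr17:4733526-4739922, minus), CCL2 (ENSG00000108691, chr17:34255218-34257203, plus) and CCL5 (ENSG00000271503, chr17:35871491-35880793, minus) are on chromosome 17, and CCL20 (ENSG00000115009, chr2:227805739-227817564, plus) is on chromosome 2. CXCL10 overlaps ART3, CXCL16 overlaps MED11 and CCL5 overlaps the antisense gene AC015849.1, each on the other strand. The strand setting of the counting was not given in the sources used here, so reads of these partners may be included. CXCL2 and CXCL3 are near-identical in parts: 7.07% of the 75-base windows of CXCL2 and 4.57% of those of CXCL3 also occurred in another gene, and their counts are uncertain to that extent. In CCL5, 7.94% of such windows occurred in other genes.

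Bases upstream of the RefSeq gene start (GRCh38.p14) were held for 7 of the 10 members: CXCL1, CXCL2, CXCL3, CXCL5, CXCL8, CXCL10 and CCL20. They are shown because the 9 letters of GGAATTTCC recur there in all 5 members named above as ligands of CXCR2. In CXCL1, CXCL2 and CXCL3 the letters lie within a longer stretch of like bases. The genes of the NF-kappaB factors are described further on. The bases run 5′ to 3′ on the gene's strand, and the capitals mark a match on either strand to the NF-kappaB consensus or to its 9-base form GGAATTTCC. For CXCL1 and CXCL10 the 130 bases before the start are printed, and for the others, whose window lies on an exon of a longer GENCODE 29 transcript, 30 bases around the match nearest to the start.
CXCL1, chr4:73869263-73869392, plus strand: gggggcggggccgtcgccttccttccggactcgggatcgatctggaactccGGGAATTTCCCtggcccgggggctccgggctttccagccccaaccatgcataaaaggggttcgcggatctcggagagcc
CXCL2, chr4:74099253-74099282, minus strand: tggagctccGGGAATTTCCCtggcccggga
CXCL3, chr4:74038748-74038777, minus strand: tggagctccGGGAATTTCCCtggcccggcc
CXCL5, chr4:73998748-73998777, minus strand: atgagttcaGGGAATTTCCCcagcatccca
CXCL8, chr4:73740467-73740496, plus strand: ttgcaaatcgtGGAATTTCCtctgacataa
CXCL10, chr4:76023498-76023627, minus strand: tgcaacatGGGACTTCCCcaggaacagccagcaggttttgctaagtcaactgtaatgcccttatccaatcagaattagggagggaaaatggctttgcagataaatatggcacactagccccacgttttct
CCL20, chr2:227813753-227813782, plus strand: tgatcaatggGGAAAACCCCatgtggcaac

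Over the 250 bases before the start, both strands, the NF-kappaB consensus was found in 6 of the 7 members (all but CXCL8) and in 5.05% of 27305 RefSeq promoters. The overlapping 9-base form GGAATTTCC was found in 6 of 7 (all but CCL20) and in 0.428% of those promoters. These letters are shown because they recur in the members, so this contrast is a description and no test. CXCL1, CXCL2 and CXCL3 are alike here and are not separate finds. In CXCL1, CXCL2, CXCL3 and CXCL5 the same letters matched the consensus on both strands, 1 base apart, and began at base -79, -78, -79 and -91. In CXCL8 the 9-base form began at base -91. CXCL10 held a consensus match at bases -122 to -113 and another, overlapping the 9-base form on the minus strand, at -177 to -168. An AP-1 motif (TGANTCA, in 6.60% of promoters) was found in CXCL8 only, at bases -137 to -131, and the core of the interferon-stimulated response element (ISRE core, bound by interferon regulatory factors, in 3.07% of promoters) in CXCL10 only, at -221 to -212. The C/EBP-ATF motif was found in 0 of 7 members and in 3.19% of promoters, and TATAAA in CXCL8 and CCL20 (in 11.1% of promoters). The aligned 250 bases were 81.4% identical between CXCL1 and CXCL3, 73.3% between CXCL2 and CXCL3 and 70.4% between CXCL1 and CXCL2. The patterns searched were written from general knowledge, not taken from a motif database, and which members hold a match depends on them. A match describes the letters and is no measured binding site.

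**Figure D1:**
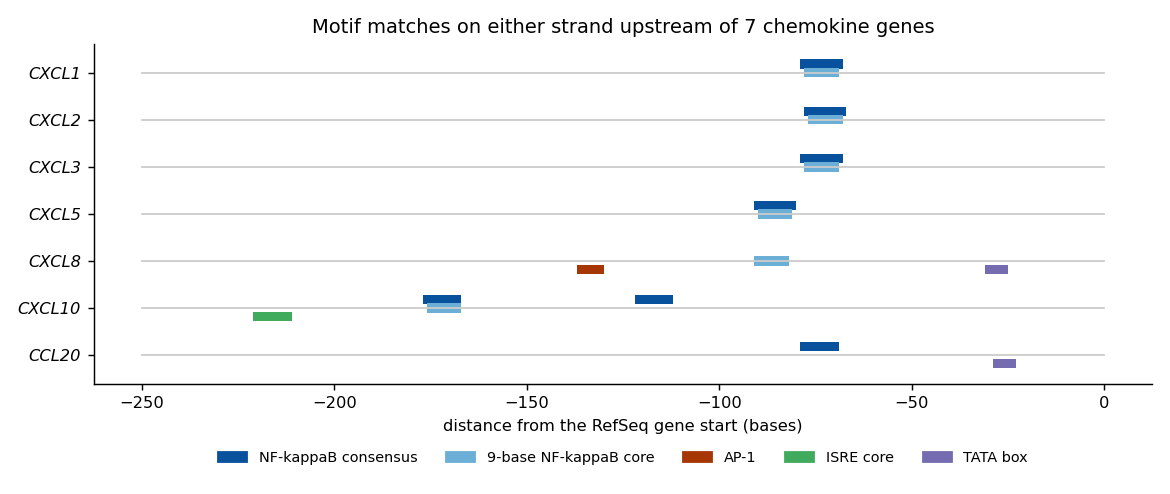
Positions of motif matches on either strand in the 250 bases before the RefSeq start of 7 chemokine genes; the x axis is the distance from the start in bases, and each colour is a motif. The NF-kappaB matches of CXCL1, CXCL2 and CXCL3 lie at the same distance to within 1 base, and CXCL10 holds 2 consensus matches.

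Each HCC1806 library held between 18640633 and 24704877 counts, and each MDA-MB-468 library between 34581754 and 44790741. PRKRA measured 78.6, 82.6 and 72.1 CPM (counts-per-million after TMM scaling over all 12 libraries) with the control guide in HCC1806 and 37.5, 36.1 and 37.3 with sgPACT-2, and fell (log2 fold change -1.06, SE 0.11, edgeR adjusted p = 0.00311). In MDA-MB-468 it measured 41.1, 45.9 and 46.9 against 39.2, 35.5 and 41.6 CPM and did not pass (-0.19, SE 0.08, adjusted p = 0.383). Protein was not analysed here, so depletion in this line is taken from the labels. Epithelial markers (9 genes, KRT5 and EPCAM among them) summed to 3150–3799 CPM in HCC1806 control libraries and 2436–2775 in depleted ones, and to 5936–6572 and 5437–6608 in MDA-MB-468. Of 10 immune markers, which mark cells that also make and bind chemokines, 5 were at 3 counts or fewer in every HCC1806 control library and 4 in every depleted one, and 6 were so in each MDA-MB-468 group. MS4A1, which marks B cells, had 0 counts in all 12 libraries and CD3E, of T cells, at most 1. The immune markers summed to 2.58–3.40 and 4.46–7.08 CPM in HCC1806 and 109–130 and 93.7–106 in MDA-MB-468, where CD14 made up most of it. Of the receptors that define the tumour type, PGR averaged 0.0573 and 0.0101 CPM in the control libraries of HCC1806 and MDA-MB-468, ESR1 20.9 and 6.67 and ERBB2 194 and 140. The fibroblast markers summed to 46.1–54.3 and 55.6–62.3 CPM in HCC1806.

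CXCL16 was the most abundant member in every group, and the order of the others differed between the lines. Levels are compared between genes as CPM per kb of exon. In HCC1806 control libraries CXCL16 stood at 52.9 ± 5.47 CPM per kb, CXCL1 at 14.2 ± 5.64, CXCL8 at 5.73 ± 1.38 and CXCL2 at 2.67 ± 0.527 (SD, n = 3 each), and the ranges of these 4 genes did not overlap. CCL5 (0.864 ± 0.272), CXCL3 (0.737 ± 0.215) and CCL20 (0.529 ± 0.382) came next and overlapped each other. CXCL5 (0.137 ± 0.067) and CXCL10 (0.0711 ± 0.0937) overlapped at the low end, where the lowest CCL20 library also lay, and CCL2 had 0 counts. In depleted HCC1806 libraries the order was CXCL16 (47.1), CXCL1 (28.8), CXCL8 (14.6), CXCL2 (6.48), CCL5 (2.89), CCL20 and CXCL3 nearly level (1.49 for CXCL3), CXCL10 (0.923), CXCL5 (0.0998) and CCL2 (0.0056). There CXCL16 and CXCL1 overlapped, with a highest CXCL1 library at 49.7 CPM per kb. In MDA-MB-468 control libraries CXCL16 stood at 22.0 ± 1.31 CPM per kb and the next gene, CXCL8, at 0.593 ± 0.200. CXCL8, CXCL2 (0.443), CXCL10 (0.442) and CXCL1 (0.262) formed a run of overlapping neighbours in this line, and CCL5, CCL20, CXCL3 and CCL2 lay at or under 0.0495.

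**Figure D2:**
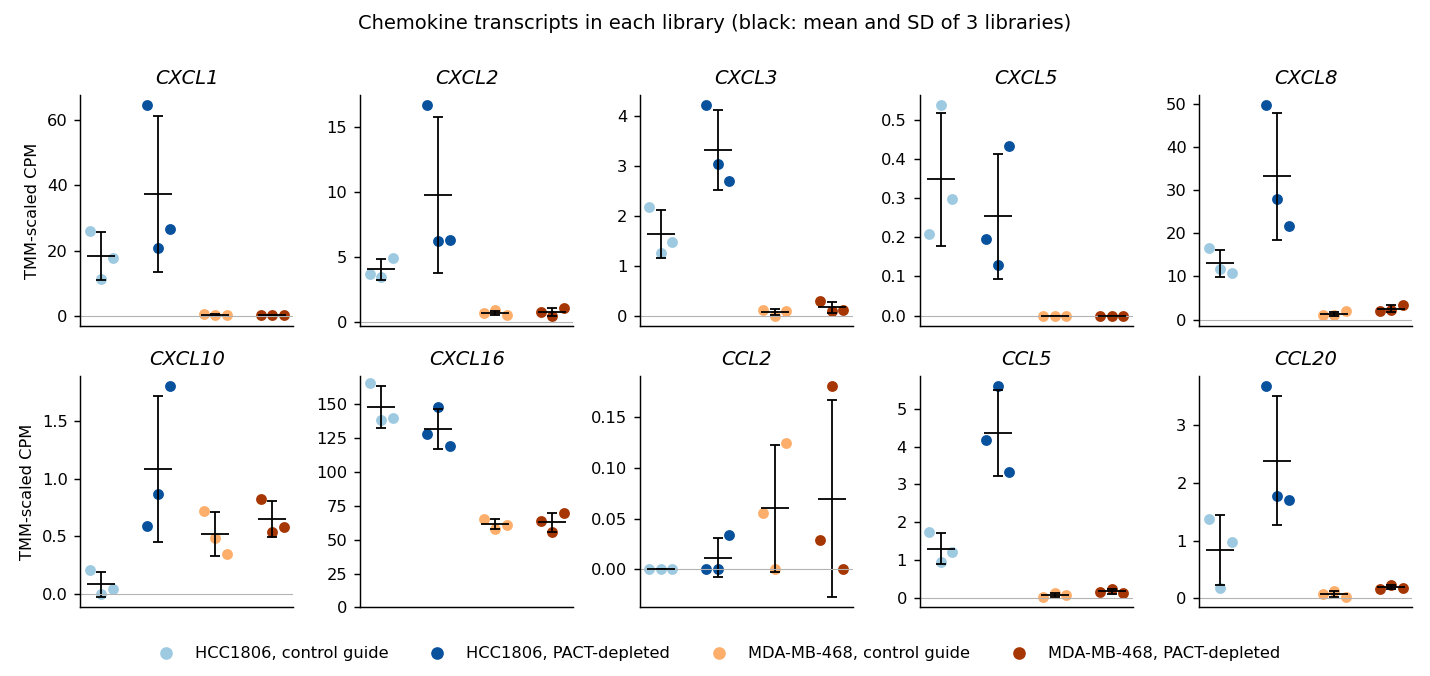
Level of the 10 chemokines in each library, in TMM-scaled CPM on a linear axis of its own for each gene; coloured points are libraries in the order of their replicate numbers, and black lines are the mean and SD of 3 libraries. In HCC1806 the 3 depleted libraries of CXCL8, CXCL2, CXCL3, CXCL10, CCL5 and CCL20 lie above the 3 control libraries, while the CXCL16 groups overlap in both lines.

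The question of the first comparison was what PACT depletion did to these transcripts in HCC1806. Of the 8 members with enough counts to be tested, 7 had higher levels after depletion, with log2 fold changes from 1.03 (CXCL3) to 3.63 (CXCL10), and CXCL16 did not. With edgeR's quasi-likelihood test on the 6 libraries, 0 of 8 passed an adjusted p-value of 0.05, where 0.315% of the 23485 genes tested did. With the replicate number as a block, which compares libraries of the same number, CXCL8, CXCL1, CCL5, CXCL10 and CXCL2 rose, 5 of 8, where 2.84% of all genes tested passed and 1.37% rose. The numbers were taken as pairs in this line, but the pairing is uncertain, as described with the processing. The calls with the block depend on it.

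Among the ligands of CXCR2, CXCL8 measured 16.6, 11.7 and 10.8 CPM in HCC1806 control libraries 1 to 3 and 49.7, 28.0 and 21.8 in the depleted ones. All 3 depleted libraries were above all 3 control libraries, and depleted library 1 was the highest. edgeR put the log2 fold change at 1.36 (SE 0.28, adjusted p = 0.0879); it was 1.31 (SE 0.14, adjusted p = 3.0e-04) with the replicate block.

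CXCL1 measured 26.0, 11.4 and 17.7 CPM in control libraries and 64.5, 20.8 and 26.6 in depleted ones. The groups overlapped, since control library 1 was above depleted library 2, but each depleted library was above the control library of the same number. The log2 fold change was 1.03 (SE 0.39, adjusted p = 0.354 in edgeR), and 0.95 (SE 0.15, adjusted p = 0.00458) with the replicate block.

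CXCL2 measured 3.67, 3.45 and 4.91 CPM in control libraries and 16.7, 6.20 and 6.31 in depleted ones. The groups did not overlap, and depleted library 1 stood far above the other two. The log2 fold change was 1.28 (SE 0.37, adjusted p = 0.213 in edgeR), and 1.15 (SE 0.29, adjusted p = 0.0496) with the replicate block. Without replicate 1 of both groups, the CXCL2 value with the block was 0.60 (adjusted p = 0.230) and no longer passed.

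CXCL3 measured 2.17, 1.25 and 1.48 CPM in control libraries and 4.21, 3.03 and 2.70 in depleted ones. The groups did not overlap, yet the change of 1.03 (SE 0.30, adjusted p = 0.223 in edgeR) did not pass, nor did it with the block (1.04, adjusted p = 0.0599). With CXCL1, CXCL2 and CXCL3 counted as 1 gene, the log2 fold change was 1.08 (adjusted p = 0.282 in edgeR). Reads may be exchanged between CXCL2 and CXCL3, but only 0.25% of the 75-base windows of CXCL1 occurred in another gene. CXCL1 had 1295 summed counts in control libraries, against 281 for CXCL2 and 115 for CXCL3, so the sum says little about that exchange. CXCL5 had 5, 12 and 7 counts in control libraries and 4, 3 and 13 in depleted ones, 24 and 20 in all, too few to be tested.

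CXCL10 was near the detection limit in HCC1806 control libraries, with 5, 0 and 1 counts, and had 12, 20 and 54 counts in the depleted libraries. That is 0.208, 0 and 0.0424 CPM against 0.588, 0.867 and 1.80 CPM, with no overlap. Summed over libraries, 6 counts stood against 86, a depth-scaled ratio of 13.6 with a 95% exact interval of 6.02 to 38.2, which covers counting error only. The fitted log2 fold change was 3.63 (SE 0.82, adjusted p = 0.132 in edgeR), and 3.59 (SE 0.83, adjusted p = 0.0356) with the replicate block. The fitted size rests on the 6 control counts, 5 of them in library 1: leaving out libraries moved it between 2.82 and 5.69, and without control library 1 it was 5.37 (adjusted p = 0.205).

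CCL5 measured 1.75, 0.940 and 1.23 CPM in control libraries and 4.16, 5.59 and 3.34 in depleted ones. Every depleted library was above every control library, and here library 2, not library 1, was the highest. The log2 fold change was 1.75 (SE 0.31, adjusted p = 0.0555 in edgeR), and 1.74 (SE 0.31, adjusted p = 0.00932) with the replicate block.

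CCL20 measured 1.38, 0.179 and 0.974 CPM in control libraries and 3.67, 1.78 and 1.70 in depleted ones. The groups did not overlap, but control library 2 rested on 4 counts. The log2 fold change of 1.49 (SE 0.56, adjusted p = 0.350 in edgeR) did not pass, nor did 1.61 (adjusted p = 0.0603) with the block. CCL2 had 0 counts in 5 of the HCC1806 libraries and 1 count in depleted library 3; the limit that a count of 0 allows was 0.100 to 0.147 CPM in these libraries.

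CXCL16, the most abundant member, measured 165.4, 138.0 and 140.0 CPM in control libraries and 128.3, 147.6 and 119.1 in depleted ones. The groups overlapped, and library 2 was higher after depletion while the other libraries were lower. In edgeR the log2 fold change came to -0.15 (SE 0.13, adjusted p = 0.731), with a 95% interval of -0.43 to 0.13, which leaves out an increase of the size estimated for the other 7 tested members.

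The groups of HCC1806 did not overlap for 6 of the 8 tested members, all 6 higher, where 8.67% of all genes tested were higher in this way. Within same-numbered libraries 7 of 8 were higher in all 3 pairs, against 18% of all genes. The median log2 fold change of the 8 was 1.32 and that of all genes tested 0.02. CXCL10 passed the filter on low counts through its depleted libraries alone and so had to differ. Without it, the groups did not overlap for 5 of 7 members, 6 of 7 were higher in all pairs, 4 of 7 rose with the block and the median was 1.28. At an unadjusted p-value under 0.05, 7 of 8 passed in edgeR, and 6 of 7 without CXCL10, against 11.5% of all genes. DESeq2 called 3 (CXCL8, CCL5 and CXCL2) with adjusted p-values of 3.6e-04, 2.1e-04 and 0.0280. Depleted library 1 of HCC1806 was the highest for CXCL8, CXCL1, CXCL2, CXCL3 and CCL20. Without this library edgeR called 3 members, CXCL8 (0.95, adjusted p = 0.0254), CXCL10 (3.92, 0.0311) and CCL5 (1.78, 0.0228), while the estimates of CXCL1 and CXCL2 were 0.39 and 0.66 in place of 1.03 and 1.28. Without depleted library 3, CXCL8 alone passed (1.59, adjusted p = 0.0344). With the block and without the replicates of number 1, 2 or 3, edgeR called 5, 5 and 7 members, and CXCL8, CXCL1, CXCL10 and CCL5 were among them each time. The calls of CXCL10 in these runs are no support for a change, since its counts lay mostly in the depleted libraries.

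**Figure D3:**
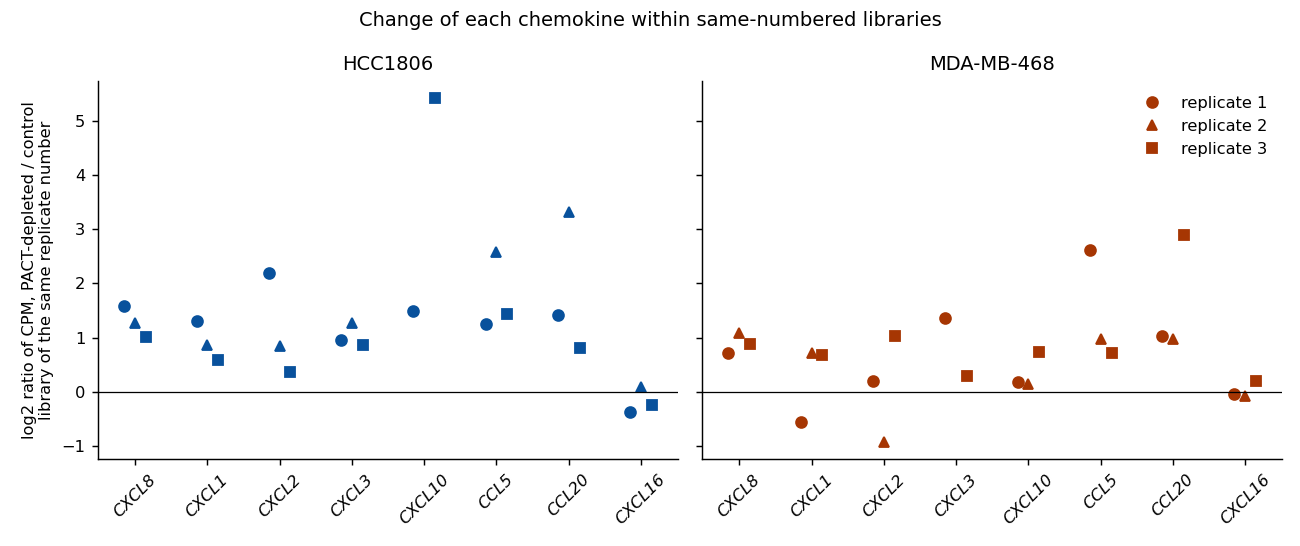
Log2 ratio of CPM between the depleted and the control library of the same replicate number, for HCC1806 (left) and MDA-MB-468 (right); pairs with 0 counts on either side, and CXCL5 and CCL2, are not drawn. In HCC1806 all drawn values except those of CXCL16 lie above 0, from 0.36 (CXCL2, replicate 3) upward.

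Several values moved with the same contrast in HCC1806. The epithelial marker sum was lower in every depleted library, as given above. In edgeR without the block, 0 of the 9 epithelial markers passed. With the block KRT5 (-0.91, adjusted p = 4.4e-04), KRT19 (-0.59, 0.0104) and EPCAM (-0.54, 0.0221) fell and KRT17 (0.53, 0.0430) rose. The shares over all genes tested with the block were 2.84% in either direction and 1.37% higher. Of the immune markers ITGAM, an integrin of myeloid cells, rose from 0.591 ± 0.187 to 3.58 ± 0.796 CPM (SD, n = 3 each; log2 fold change 2.62, adjusted p = 0.0104 in edgeR), whereas CD14, another myeloid marker, was lower without passing (1.66 ± 0.325 and 1.05 ± 0.233 CPM, -0.62, adjusted p = 0.545) and PTPRC, the defining marker of leukocytes, measured 0.313 and 0.221 CPM on average. The part of these markers in the chemokine values was not tested. In bulk RNA, more cells that transcribe a gene and more RNA per cell cannot be told apart.

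In MDA-MB-468 only 5 of the 10 members had enough counts to be tested, and 0 of 5 passed in edgeR without the block, where 1.51% of the 21404 genes tested did. The numbers were not taken as pairs in this line, and its result with the block is given in the last section. The calls with the block in HCC1806 are therefore not to be set beside this count. CXCL8 was the member with the smallest p-value. It measured 1.14, 1.03 and 1.87 CPM in control libraries and 1.88, 2.20 and 3.48 in depleted ones (41, 34 and 75 against 66, 73 and 113 counts). All depleted libraries were above all control libraries, though control library 3 and depleted library 1 nearly met; 6.79% of all genes tested were higher in this way. The log2 fold change was 0.90 (SE 0.30, adjusted p = 0.163). CXCL8 was the 1 of 5 tested members past an unadjusted p-value of 0.05, where 10.6% of all genes were, and DESeq2 called 0 members.

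The other tested members of MDA-MB-468 showed no change that the spread allowed to be detected. CXCL1 measured 0.585, 0.183 and 0.250 against 0.399, 0.301 and 0.400 CPM (log2 fold change 0.13, 95% interval -1.10 to 1.35). CXCL2 measured 0.641, 0.852 and 0.499 against 0.741, 0.451 and 1.02 CPM (0.16, -0.78 to 1.11). Both intervals span sizeable increases as well as decreases. CXCL10 measured 0.724, 0.487 and 0.349 against 0.827, 0.541 and 0.585 CPM (0.34, -0.66 to 1.34), and its groups overlapped. CXCL8 and CXCL10 were higher after depletion in all 3 same-numbered pairs, 2 of 5 members against 14.9% of all genes tested. CXCL16 measured 65.5, 58.3 and 60.7 against 64.1, 55.4 and 69.4 CPM, and its 95% interval of -0.11 to 0.21 around 0.05 (SE 0.08) is the narrowest of all members. The median of the 5 log2 fold changes was 0.16, and that of all genes tested -0.00.

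CCL20, CCL5 and CXCL3 were under the filter in MDA-MB-468, and their counts are given as they are. CCL20 had 3, 4 and 1 counts in control libraries and 6, 8 and 6 in depleted ones, a depth-scaled ratio of 2.70 (95% exact interval 1.14 to 7.08). CCL5 had 1, 4 and 3 against 6, 8 and 4 counts, a ratio of 2.43 (1.00 to 6.45). The CPM of both genes did not overlap between the groups, at up to 0.241 CPM. CXCL3 had 4, 0 and 4 against 10, 3 and 4 counts, with a ratio of 2.29 (0.938 to 6.14). These intervals cover counting error only, and that of CXCL3 includes a ratio of 1, while the lower end of that of CCL5 lies just above it. CCL2 had 2, 0 and 5 against 1, 6 and 0 counts, with no order between the groups. CXCL5 had 0 counts in all 6 libraries, which allows up to 0.0749 to 0.0923 CPM.

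**Figure D4:**
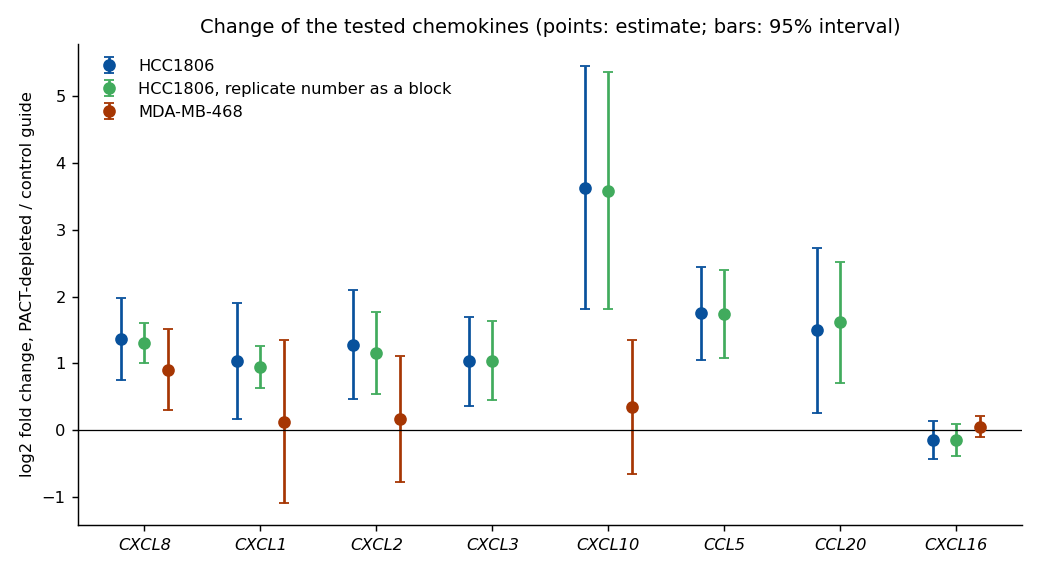
Log2 fold change (depleted against control guide) of the tested chemokines with its 95% interval, from edgeR: HCC1806, HCC1806 with the replicate number as a block, and MDA-MB-468. The block narrows the intervals of CXCL8 and CXCL1 in HCC1806, the CXCL16 intervals all include 0, and 4 of the 5 intervals of MDA-MB-468 include 0.

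Whether the lines differed in their change was tested in 1 model of all 12 libraries. None of the 8 tested members passed (0 of 8 in edgeR, where 0.122% of the 27029 genes tested did), and 1 of 8, CXCL10, had an unadjusted p-value under 0.05, against 8.39% of all genes. The change of CXCL10 was lower in MDA-MB-468 than in HCC1806 by -3.30 on the log2 scale (SE 0.95, 95% interval -5.31 to -1.29, adjusted p = 0.266). With no filter on low counts this difference passed (adjusted p = 0.0419). For CXCL8 the difference was -0.46 (SE 0.44, 95% interval -1.40 to 0.47), for CXCL2 -1.11 (-2.30 to 0.08) and for CXCL1 -0.91 (-2.61 to 0.80). The larger values of these genes in HCC1806 were thus not shown to be a difference between the lines.

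Before depletion the lines differed in all 8 tested members: 7 were lower and 1 was higher in MDA-MB-468 control libraries than in those of HCC1806, in a contrast where 74.2% of all genes passed, 40.1% lower and 34.2% higher. CXCL3, CCL5 and CCL20, with 8 summed counts each in MDA-MB-468 control libraries, entered this test through HCC1806, and CXCL10 had 6 in HCC1806 control libraries, so the count over all 8 is no support for a difference, and these 4 sizes rest on few counts. The 4 members that averaged 10 or more counts in each group (CXCL1, CXCL2, CXCL8 and CXCL16) were all lower. CXCL1 was lower by the largest amount, 0.339 ± 0.216 against 18.4 ± 7.31 CPM (SD, n = 3 each; log2 difference -5.74, SE 0.49, edgeR adjusted p = 1.1e-08). CXCL3 (-4.41), CCL5 (-4.07), CCL20 (-3.44) and CXCL8 (-3.25) followed, and CXCL2 was lower by -2.60. CXCL16 differed least among the genes that were lower, with 61.5 ± 3.67 against 147.8 ± 15.3 CPM (-1.27, SE 0.12, adjusted p = 2.6e-08). CXCL10 went the other way, 0.520 ± 0.190 against 0.0836 ± 0.110 CPM (2.55, SE 0.77, adjusted p = 0.00639), a value that leaving out 1 library moved between 2.04 and 4.35, the latter without HCC1806 control library 1. CXCL5, with 0 counts in MDA-MB-468, was at least 4.17-fold higher in HCC1806, against a floor of 3 counts per library.

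Of 28 other chemokines, 4 could be tested in HCC1806 and 5 in MDA-MB-468, and 0 passed in either line. CCL28, the ligand of CCR10, was the most abundant of them in HCC1806 (9.92 and 9.28 CPM), and CX3CL1, a membrane-bound chemokine also known as fractalkine, in MDA-MB-468 (179 and 159 CPM, log2 fold change -0.15, adjusted p = 0.404). With the block CCL26, a ligand of CCR3, fell in HCC1806 (-1.84, SE 0.45, adjusted p = 0.0444), the only one of the 4 to pass, where 2.84% of all genes did. CXCL6 measured 1.09 ± 0.376 and 2.34 ± 0.497 CPM there and did not pass (1.12 with the block, adjusted p = 0.113). That change was near the size of CXCL3's (1.04). Over all 28, most of them too low to be tested, 3 were higher after depletion in HCC1806 with groups that did not overlap, and 1 was lower. The share of 8.67% that were higher in this way is over tested genes only, so it cannot be set directly against this count. Of 22 chemokine receptors, 7 and 8 could be tested and 0 passed. ACKR3, an atypical receptor that takes up CXCL12, led in HCC1806 (97.6 and 87.0 CPM) and had 0 counts in MDA-MB-468, where ACKR2, a scavenger of CC chemokines, led (61.8 and 60.5 CPM). With the block CCR4 rose in HCC1806 (0.073 to 1.29 CPM, log2 fold change 4.00, adjusted p = 0.0172), where 1.37% of all genes rose. Its control mean lay under the floor of 0.125 to 0.134 CPM in those libraries. CCR4 entered the test through its depleted libraries, so this call is no support for a change.

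Of 15 genes of the NF-kappaB factors and their inhibitors, all tested, 4 rose and 0 fell in HCC1806, where 0.277% of all genes rose. With the block 8 rose, where 1.37% of all genes did. RELB, a subunit of the non-canonical branch, went from 7.70 ± 0.396 to 38.3 ± 2.56 CPM (2.33, SE 0.13, edgeR adjusted p = 8.4e-05). NFKB2, its partner, changed by 1.32 (adjusted p = 0.0014) and NFKBIE, an inhibitor, by 1.07 (0.0306). The fourth, TNFAIP3, which encodes the inhibitor A20, changed by 1.91 (0.0439). In MDA-MB-468 5 of 15 rose, where 1.21% of all genes did: TNFAIP3 by 1.55 (3.9e-10), RELB by 1.08 (5.9e-09), the kinase gene MAP3K14 by 0.87 (1.2e-06), NFKB2 by 0.65 (6.2e-06) and NFKB1, named after its value was seen, by 0.30 (0.034). The increase of RELB was smaller in MDA-MB-468 than in HCC1806, by -1.24 (SE 0.18, adjusted p = 0.00674 for the difference).

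Of 13 tested cytokines and receptors that induce chemokines, 0 passed in HCC1806 and 2 rose in MDA-MB-468, where 1.21% of all genes rose. These were IL6, an acute-phase cytokine, from 0.145 ± 0.0966 to 4.31 ± 1.47 CPM (4.85, SE 0.39, edgeR adjusted p = 1.2e-09), and LTA, which encodes lymphotoxin alpha, at 3.85 (adjusted p = 0.0111). LTA measured 0.0372 ± 0.0643 CPM in control libraries and 0.576 ± 0.175 in depleted ones. Both genes entered the test through their depleted libraries, so their calls are no support for a change and their sizes rest on few control counts. With the block TNF, an inducer of CXCL8, rose in HCC1806 from 0.276 to 2.36 CPM (3.08, adjusted p = 0.00509) and IL6R fell (-0.96, adjusted p = 0.0127). Of all genes tested 2.84% passed with the block and 1.37% rose. TNF had few control counts and entered the test through its depleted libraries. IL1A, a chemokine-inducing cytokine, stood at 66.1 ± 28.0 and 101 ± 69.2 CPM in HCC1806 and at 0.455 and 0.632 CPM in MDA-MB-468, and passed in neither line.

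Of 16 tested genes on the interferon route to CXCL10 and CCL5, 1 rose in each line, where 0.277% of all genes rose in HCC1806 and 1.21% in MDA-MB-468. In HCC1806 it was DDX58, the RNA sensor RIG-I, from 17.6 ± 1.07 to 30.1 ± 2.79 CPM (0.79, edgeR adjusted p = 0.0367), and with the block IRF1 (0.58, 0.0138) and IRF7 (0.56, 0.0448) rose too, where 1.37% of all genes did. In MDA-MB-468 it was IRF1, an activator of CXCL10, from 43.2 ± 0.189 to 64.0 ± 3.75 CPM (0.58, adjusted p = 8.5e-06). The change of DDX58 differed between the lines by -0.97 (adjusted p = 0.0489).

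Of 12 AP-1 and C/EBP factors, 1 rose in HCC1806, 7 with the block, and 3 in MDA-MB-468; the shares over all genes were 0.277%, 1.37% and 1.21%. ATF3, a stress-induced factor of the ATF family, went from 7.57 ± 1.25 to 44.4 ± 4.71 CPM in HCC1806 (2.57, edgeR adjusted p = 1.4e-04) and from 29.5 ± 0.350 to 91.2 ± 12.9 in MDA-MB-468 (1.64, adjusted p = 3.3e-14). DDIT3, which encodes CHOP, and CEBPG rose in MDA-MB-468 by 0.68 (4.1e-04) and 0.30 (0.0293). In HCC1806 with the block DDIT3 (0.82) and JUN (0.86) rose as well. Of 15 genes of chemokine processing and mRNA decay, 0 passed in either line, with 15 and 13 tested. With the block ZC3H12A, an RNase that degrades inflammatory mRNAs, rose by 0.59 (adjusted p = 0.0296) and MMP9, a protease that cleaves chemokines, by 1.95 (0.0305) in HCC1806. ADAM10, the sheddase of CXCL16, stood at 241 and 190 CPM in HCC1806 and 218 and 214 in MDA-MB-468.

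Genes whose pattern was most like that of a member were looked for among 15914 non-member genes averaging 50 or more counts, as the Pearson r of log2 CPM over the 12 libraries after each line's mean was subtracted; the values are a description, and genes of 1 library share its depth and scaling. For CXCL16 the genes most alike included GNPDA1 (r = 0.889), ANKRD27 (0.879), REEP6 (0.860) and CWC15 (0.859). For CCL5, the member with the smallest adjusted p-value in the comparisons of depleted with control libraries without the block, they were PPP2R2D (0.951), GTPBP2 (0.922), PTPDC1 (0.910), AC009093.4 (0.902) and SULT1E1 (0.902). In MDA-MB-468 the CCL5 values rest on 8 and 18 summed counts.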

How the data were processed

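The authors deposited whole-number read counts for each Ensembl gene, not normalized, with 1 column per library. Per the labels, libraries were made with a NEBNext Ultra II kit after DNase treatment and rRNA removal. Trimmomatic 0.36, STAR 2.5.2b and featureCounts of Subread 1.5.2 with GRCh38 are named in the submitters' processing notes; settings and annotation release were not given in the sources used here. The 485 rows with an Ensembl ID but no gene name held 0.0284% of counts and were kept.

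The main tests used edgeR 4.0.16 in R 4.3.3 (filterByExpr, TMM, glmQLFit, glmQLFTest, two-sided). Each line was fitted alone for its own contrast, because their spread differed (biological coefficient of variation 0.204 for HCC1806 and 0.0936 for MDA-MB-468). The difference between the lines, and that between control libraries, came from 1 model of 12 libraries. Benjamini-Hochberg adjustment ran over every gene tested, with 0.05 as the threshold. SE was the absolute log2 fold change divided by the square root of F. The floor was 3 counts per library, and intervals and floors cover counting error only.

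Deviations from group means of same-numbered libraries correlated at r = 0.540, 0.360 and 0.170 in HCC1806 (15626 genes averaging 50 or more counts), each over 0.1, so the numbers were taken as pairs there. This comes from the data; the labels give only the numbers. Control library 2 correlated more with depleted library 3, at 0.406, than with depleted library 2, at 0.360, so the pairing is uncertain.

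All 10 members, PRKRA and, of each gene list, up to 3 genes per line past the threshold with the smallest adjusted p-value were named. The most abundant gene was named for some lists only. A few genes were named outside these rules, IL1A, ADAM10 and CXCL6 among them. The genes with the pattern most like that of CXCL16 and of CCL5 were named too, apart from 1 gene that is left out here. The members, the lists and the choice of model were made with earlier results of these data known. Alternatives were DESeq2 1.42.0, RLE or library-size scaling, other filters, a threshold of 0.01, a shared model, CXCL1 to CXCL3 summed, the replicate block and leaving out libraries; the block without both libraries of a number was chosen after seeing the data. The steps were tested on simulated data. Python 3.11.15, Biopython 1.88 and matplotlib 3.10.9 searched promoters and drew figures.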

Additional observations from a re-analysis of the deposited data

How the results depend on the processing

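No member reversed a called change under any alternative run, but in the main tests only the contrast of control libraries had called members. Changes that were not called could turn in sign. Leaving out 1 library moved CXCL1 in MDA-MB-468 between -0.16 and 0.76, and CXCL2 between -0.14 and 0.41. In HCC1806, where 0 members passed, 3 passed with DESeq2, 2 with library size only, 6 of 10 with no filter on low counts, 3 in the shared model of 12 libraries and 5 with the replicate block; leaving out 1 library gave 0 to 3. Over all genes, 74 passed in HCC1806, against 333 with DESeq2, 118 with library size only, 645 with no filter, 46 at a mean count of 50 or more, 672 in the shared model, 668 with the replicate block and 28 at a threshold of 0.01, and 18 to 428 without 1 library. Chosen after seeing the data, the replicate block without replicate 1, 2 or 3 of both groups gave 5, 5 and 7 members and 996, 363 and 2181 genes, with 1 residual degree of freedom per gene besides the pooled spread. In the shared model CXCL8 (adjusted p = 0.0170), CXCL10 (0.0160) and CCL5 (0.0158) passed. Library size only shifted the median of all genes in HCC1806 by 0.11 on the log2 scale, and CXCL16 then stood at -0.04. In MDA-MB-468, where 323 genes passed, 46 did in the shared model, 166 at 0.01 and 158 to 315 without 1 library. For the difference between the lines 1 member, CXCL10, passed with no filter against 0, and for the control libraries 4 of the 4 members averaging 50 or more counts passed, against 8. The cause of these moves was not tested, apart from the fewer genes that stricter filters leave.

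In MDA-MB-468 the same-numbered libraries share only a number (correlations of 0.192, 0.0895 and 0.200), although each correlated best with its own number, a hint from the data. With the replicate block 1 member passed, CXCL8 (0.91, adjusted p = 0.0332), and 1031 genes against 323. For the difference between the lines the replicate block gave 0 members, as without it. In HCC1806 the block changed the calls of CXCL8, CXCL1, CCL5, CXCL10 and CXCL2, and of no other member. Depth limits CXCL5, CCL2 and, in MDA-MB-468, CXCL3, CCL5 and CCL20, which had at most 13 counts in any such library.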
